A study of Drosophila melanogaster with 6 samples.

Results

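The secretory pathway genes described here are the early steps by which a cell makes and exports proteins: entry into the endoplasmic reticulum (ER), folding there, and transport in coated vesicles to the Golgi. They were chosen by symbol from the authors' deposited table of tumor against control. The choice took 28 named genes and every symbol that starts with Sec or Srp and a digit, or with SrpR, Spase, COP or PH4alpha. Of the 6156 genes in that table, 44 met the rule, 23 by name and 21 by prefix. No symbol in the table starts with COP, because the coatomer genes end in those letters, so that coat is described separately.

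RNA sequencing compared samples given as salivary gland imaginal ring of Drosophila melanogaster, 3 of tumor (genotype Actts>GFP+NICD) and 3 of control (genotype Actts>GFP). In control, the estimated sums for markers of salivary gland secretory cells and fat body far exceeded that of the ring markers, as given below. Both groups share GFP and the driver Actts, which by Drosophila convention stands for an actin promoter held by Gal80ts, a temperature-sensitive repressor that timed expression. Such a driver acts in all cells, not in the ring alone. Tumors added NICD, the intracellular domain of Notch. Tumors were labelled with 7 days at 18 °C and 7 days at 29 °C, and controls as larvae of the third instar with no days or temperatures, so genotype, age and temperature cannot be told apart.

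Proteins bound for secretion are recognised by the signal recognition particle, threaded through the Sec61 channel, trimmed by signal peptidase and folded by chaperones in the ER. COPII vesicles then carry them to the Golgi, and COPI vesicles return escaped ER residents. The larval salivary gland is a classic secretory organ, which fills its cells with glue protein before the pupa forms.

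The files hold the authors' comparison and no value per sample, so fold changes come without SD, SE or n, and the depth of each library is unknown. Fold changes are tumor over control, adjusted p-values are the authors' false discovery rates, and a gene is called listed where it has a row, which means an adjusted p below 0.05. The p-values may ask for a change beyond 1.2-fold rather than for any change, as explained under processing. Whether samples came from separate animals or pools is not in the labels, so the p-values rest on a spread between samples that may be only technical. The level of each group was estimated from the authors' mean CPM (counts per 1000000 reads) and fold change, taking the mean as the average of both groups. These estimates sum to 351471 CPM in tumor and 1224976 CPM in control over all listed genes. Plain library totals were therefore not the scale used, and directions were also read after both sums were made equal, which adds 1.80 to every log2 fold change (equal-sum scaling). Because 1 constant is added to every gene, a gene stays lower exactly where its fall exceeded 3.49-fold. Being lower under both scalings thus restates the size of the fall and is no second test of direction. Those sums leave out the 3228 tested genes that have no row. If the mean levels add up to 1000000 CPM and the missing 211776 CPM were the same in both groups, the shift would be 1.35, so 1.80 may overstate it. Of these sums, 9 markers of salivary gland secretory cells made up 213 CPM in tumor and 287282 CPM in control. A further 7 fat body markers made up 1268 CPM in tumor and 187694 CPM in control. Both shifts thus depend strongly on a few abundant genes, and no shift was computed without them.

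Secretory pathway genes were lower in tumor almost without exception on the authors' scale. Of the 44 genes, 42 fell and 2 rose per the authors' deposited table, while under equal-sum scaling 30 were lower and 14 higher, and with the smaller shift of 1.35 the numbers were 38 and 6. Over all 9384 genes the authors tested, 65.6% were called, 31.6% lower and 34.0% higher. Among the 6156 listed genes, all called like the members, 48.2% were lower per the authors' deposited table, against 95.5% of the members. The members' median log2 fold change was -2.54, against 0.57 for all listed genes per the authors' deposited table. Relative to that general median the members' median was -3.11. Under equal-sum scaling the medians were -0.74 for the members and 2.37 for all listed genes, of which 20.2% were then lower, against 68.2% of the members. The share of all listed genes lower with the shift of 1.35 was not computed.

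The rule names 68 genes once it is read against the current annotation. Apart from the 44 members, 4 were listed under other symbols and 20 were not in the table, where a gene may be either not called or not tested. Lower members made up 61.8% of the 68 and higher members 2.94%. Falls of at least 2-fold were listed for 39 members, of at least 4-fold for 28, of at least 8-fold for 14 and of at least 16-fold for 1. Over all tested genes, the authors' deposited table holds 23.5%, 11.4%, 5.66% and 3.14% at those steps. Among listed genes, all called like the members, the shares were 35.9%, 17.3%, 8.63% and 4.79%. Among the 44 members they were 88.6%, 63.6%, 31.8% and 2.27%, so at 16-fold the members' share was the smaller. At an adjusted p below 0.01, 41 members were lower, beside 25.8% of all tested genes, and among the 44 Sec24AB alone had a larger value (0.0341) per the authors' deposited table. The 616 smallest p-values, 10% of the listed genes, included 19 of the 44 members (43.2%), with p24-1 at rank 46.

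**Figure D1:**
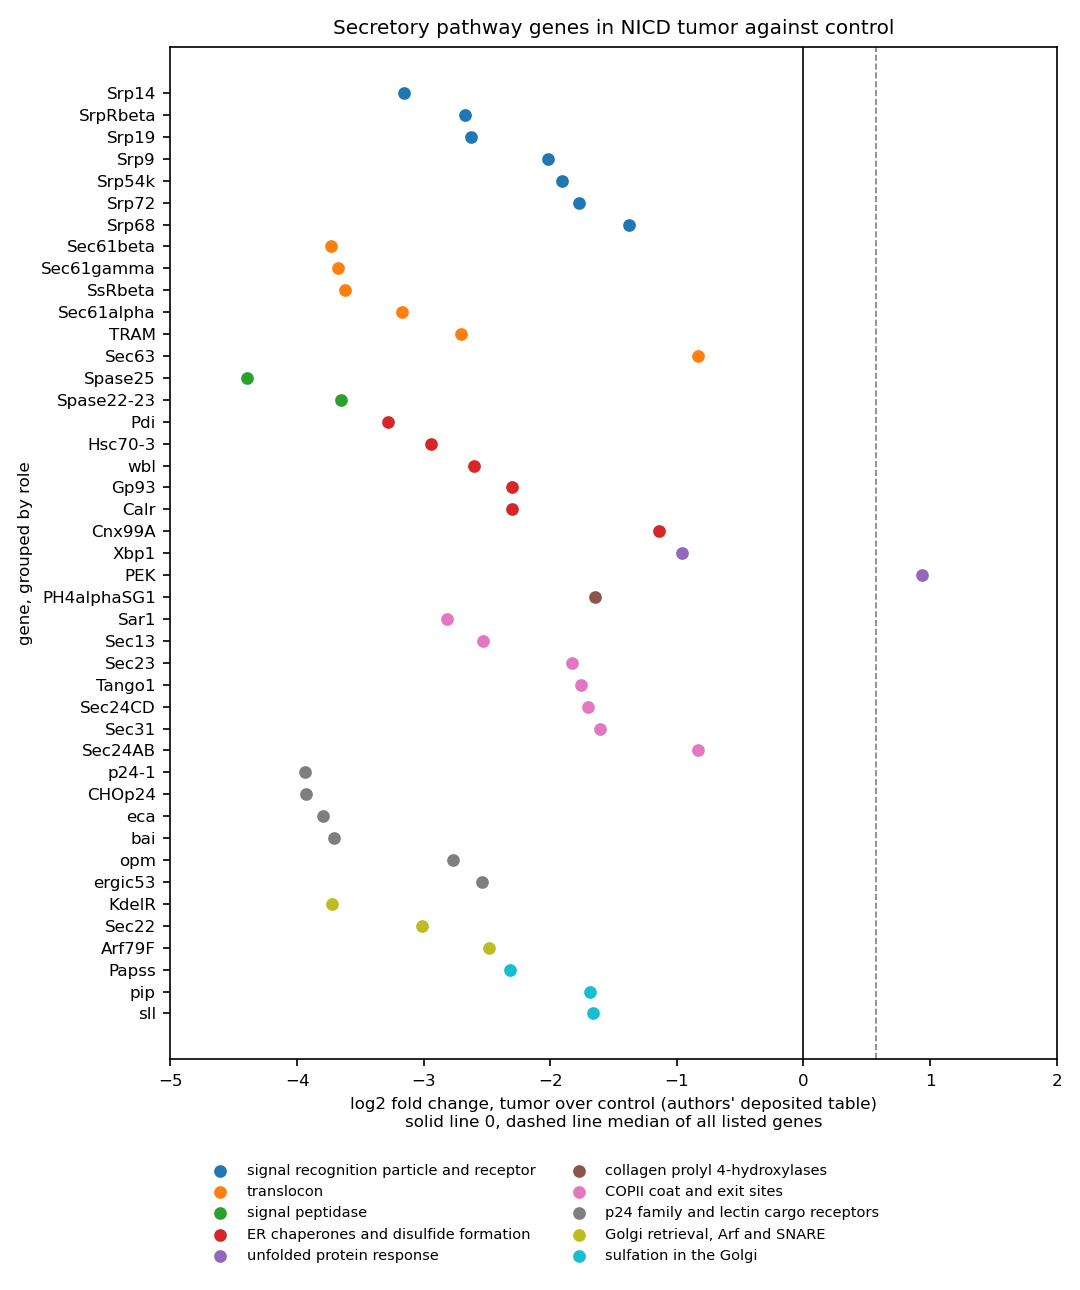
Log2 fold change of tumor over control from the authors' deposited table for 43 secretory pathway genes, 1 point per gene, coloured by role and sorted within each role. PEK (0.94) is the only point right of 0, and the others run from -4.40 to -0.83. Under equal-sum scaling every point would move right by 1.80, which puts 12 more of them right of 0. PH4alphaPV, fitted at 0 in control, is left out.

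Genes for targeting to the ER fell as a group. The signal recognition particle binds the signal peptide as it leaves the ribosome and docks at its receptor on the ER membrane. All 7 listed genes of this group were lower, 5 of them also under equal-sum scaling, with a median log2 fold change of -2.02 per the authors' deposited table. Srp14, whose product helps to pause translation, was estimated at 16.7 CPM in tumor and 148.8 CPM in control. Its log2 fold change of -3.16 (adjusted p = 0.00015) was the lowest of the group per the authors' deposited table. Srp19 (-2.63) and Srp9 (-2.02) encode the other small proteins of the particle named here, and both fell per the authors' deposited table. SRP54, the GTPase that holds the signal peptide, is encoded by Srp54k, with a log2 fold change of -1.91 per the authors' deposited table. The large subunit genes Srp72 (-1.77) and Srp68 (-1.38) fell least per the authors' deposited table, and both were higher under equal-sum scaling but lower with the shift of 1.35. SrpRbeta, the membrane anchor of the receptor, was 6.37-fold lower per the authors' deposited table. The alpha subunit of that receptor, SrpRalpha, stands in the authors' deposited table as Gtp-bp, outside the rule, and was 3.22-fold lower (adjusted p = 0.000146). Srp54, whose symbol also meets the rule but which encodes a splicing protein, was not in the table.

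The translocation channel was among the strongly reduced groups. The Sec61 complex forms the pore through which new proteins enter the ER. Sec61alpha, the pore subunit, was estimated at 222 CPM in tumor and 1997 CPM in control. Its partners Sec61beta and Sec61gamma were estimated at 122 and 46.2 CPM in tumor, against 1618 and 591 CPM in control. The log2 fold changes of these 3 subunits lay between -3.73 and -3.17 per the authors' deposited table. SsRbeta, a subunit of the translocon-associated protein complex, was 12.3-fold lower per the authors' deposited table (adjusted p = 1.55e-05). TRAM, which helps nascent chains into the membrane, was 6.51-fold lower per the authors' deposited table. Sec63, a membrane J-domain protein that recruits the chaperone BiP to the channel, fell less, 1.78-fold per the authors' deposited table, and was higher under equal-sum scaling (0.97). Of the 6 genes in the group, 5 were lower under both scalings. Trp1, the Sec62 partner of Sec63, does not meet the rule and was chosen after its value was seen: it was 3.67-fold lower per the authors' deposited table.

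Signal peptidase genes had the lowest median of the role groups, -4.03 per the authors' deposited table. Signal peptidase removes the signal peptide inside the ER. Spase25 was estimated at 75.6 CPM in tumor and 1592 CPM in control. It was 21.0-fold lower (adjusted p = 1.11e-05), the only member past 16-fold per the authors' deposited table. Spase22-23 was 12.6-fold lower per the authors' deposited table, and both genes were lower under equal-sum scaling too. The Spase18-21 subunit is listed under the symbol twr, outside the rule, and was 20.2-fold lower (adjusted p = 8.28e-06) per the authors' deposited table. Spase12 was not in the table.

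The abundant folding machinery of the ER lumen fell as well. Pdi, which forms and rearranges disulfide bonds, had the highest mean level per transcript length of all members, at 1888 CPM per kb over all libraries. It was estimated at 774 CPM in tumor and 7546 CPM in control, a 9.75-fold fall per the authors' deposited table (adjusted p = 2.91e-05). Hsc70-3 encodes BiP, the ER Hsp70 and a sensor of unfolded proteins. Its estimates were 734 CPM in tumor and 5651 CPM in control. The ER Hsp90 gene Gp93 and the calcium-binding lectin gene Calr had log2 fold changes of -2.30 each per the authors' deposited table. Calr was estimated at 631 CPM in tumor and 3111 CPM in control, and Gp93 at 342 CPM in tumor and 1687 CPM in control. Cnx99A, the membrane-bound lectin that binds the same kind of sugar as Calr, had a log2 fold change of -1.14 per the authors' deposited table (adjusted p = 0.00553), and its sign turned under equal-sum scaling. In the authors' deposited table windbeutel (wbl), an ER protein needed in the fly to bring the sulfotransferase Pipe to the Golgi, was 6.07-fold lower. All 6 listed genes of this group were lower, 5 of them under equal-sum scaling, and the ER oxidase gene Ero1L was not in the table.

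**Figure D2:**
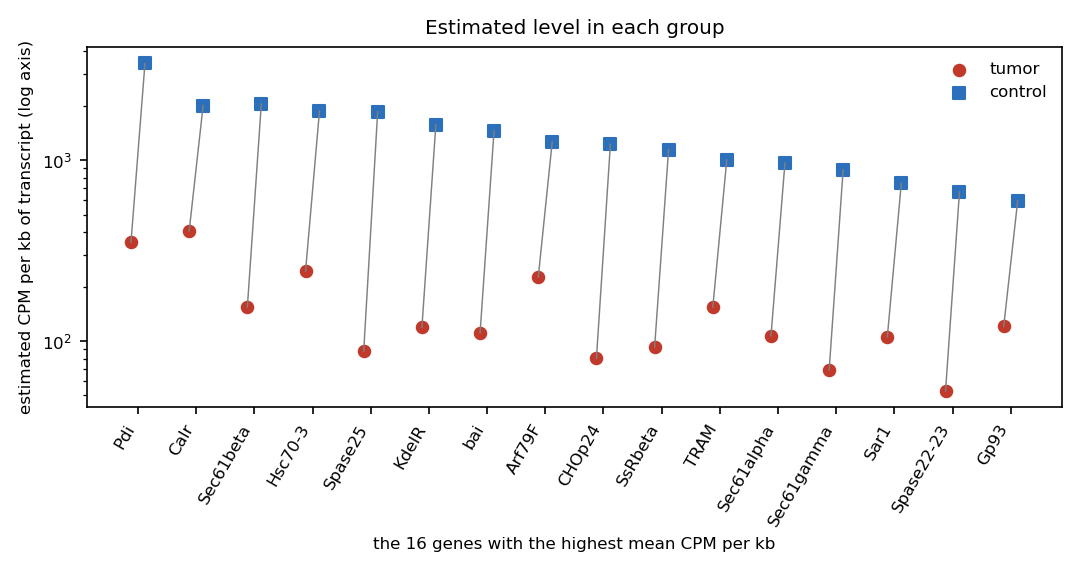
Estimated level in tumor (red circles, left of each pair) and control (blue squares, right) for the 16 secretory pathway genes with the highest mean CPM per kb, on a log axis in CPM per kb of transcript. The points are estimates from the authors' mean and fold change, with no replicate error. Every tumor point lies below its control point, as for Pdi at 351 and 3424 CPM per kb.

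Genes of the ER stress response were listed in both directions. The unfolded protein response has 2 branches represented here. Ire1 splices the message of the transcription factor Xbp1, and PEK (the fly PERK) phosphorylates eIF2alpha and slows translation. PEK was one of the 2 members that rose, 1.92-fold per the authors' deposited table (adjusted p = 0.0077), with estimates of 73.9 CPM in tumor and 38.5 CPM in control. Xbp1 fell 1.94-fold per the authors' deposited table (adjusted p = 0.00122), but was 0.84 higher on the log2 scale under equal-sum scaling. Gene totals do not separate spliced from unspliced Xbp1. Ire1 was not in the table.

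Prolyl 4-hydroxylase alpha subunits, which modify collagens and other secreted proteins in the ER, were split. Of 8 genes with this prefix 6 were not in the table. PH4alphaSG1, named for the salivary gland, was 3.12-fold lower per the authors' deposited table, but higher under equal-sum scaling (0.16) and lower with the shift of 1.35 (-0.29). PH4alphaPV rose (adjusted p = 0.00209) and was fitted at 0 in control per the authors' deposited table, which gives no usable fold. Its mean of 0.567 CPM over all libraries was the lowest of all members.

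Genes for leaving the ER were lower as well, by a smaller median that was not tested against the other groups. COPII vesicles form when the GTPase Sar1 recruits the inner coat of Sec23 and Sec24 and the outer coat of Sec13 and Sec31. All 7 listed genes of this group were lower per the authors' deposited table, with a median log2 fold change of -1.76, but only 3 were lower under equal-sum scaling. Sar1 was estimated at 161 CPM in tumor and 1135 CPM in control, a 7.04-fold fall per the authors' deposited table. Sec13, which also serves in the nuclear pore, was 5.80-fold lower, and its coat partner Sec31 3.05-fold lower, per the authors' deposited table. The inner coat genes Sec23 and Sec24CD were 3.55-fold and 3.25-fold lower per the authors' deposited table. Sec24AB, the other cargo-binding Sec24 gene, fell 1.78-fold per the authors' deposited table, and Sec16, the scaffold of ER exit sites, was not in the table. Tango1, which the fly needs to export bulky cargo such as collagen, was 3.38-fold lower per the authors' deposited table. The signs of Sec24AB, Sec24CD, Sec31 and Tango1 turned under equal-sum scaling, but only that of Sec24AB with the shift of 1.35.

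Cargo receptors had a lower median than the coat that carries them, a difference that was not tested. Proteins of the p24 family are small membrane proteins that cycle between ER and Golgi and help to pack cargo. The group, which also holds ergic53, had a median log2 fold change of -3.75 per the authors' deposited table, and all 6 listed genes were lower under both scalings. The genes p24-1 (15.3-fold), CHOp24 (15.2-fold), eclair (eca, 13.8-fold) and baiser (bai, 13.1-fold) were lower per the authors' deposited table. For p24-1 the estimates were 52.9 CPM in tumor and 809 CPM in control, with the smallest adjusted p of all members per the authors' deposited table (7.82e-06). Opossum (opm) was 6.82-fold lower per the authors' deposited table. The sixth gene, ergic53, encodes a lectin that carries glycoproteins and was 5.82-fold lower per the authors' deposited table. The gene logjam is listed as loj, outside the rule, and was 3.82-fold lower per the authors' deposited table, while p24-2 was not in the table.

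Retrieval genes fell with them. KdelR, the receptor that returns ER proteins bearing a KDEL-type tail, was estimated at 151 CPM in tumor and 1998 CPM in control. It was 13.2-fold lower per the authors' deposited table (adjusted p = 1.18e-05). The SNARE gene Sec22 was 8.07-fold lower per the authors' deposited table. Arf79F, the Arf GTPase that recruits the COPI coat, was 5.60-fold lower per the authors' deposited table. All 3 were lower under both scalings. Sec20, a further SNARE of this route by the current annotation, is listed as CG2023 and was 8.06-fold lower per the authors' deposited table. Sec71, an Arf exchange factor, was not in the table.

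Sulfation genes were lower too, with a median log2 fold change of -1.68 per the authors' deposited table. Papss makes the sulfate donor PAPS, slalom (sll) carries it into the Golgi, and pipe (pip) transfers sulfate to glycans or proteins. Papss was 4.996-fold lower, pip 3.21-fold and sll 3.16-fold lower per the authors' deposited table. Only Papss was lower under equal-sum scaling as well, though all 3 were with the shift of 1.35.

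The exocyst genes Sec3, Sec5, Sec6, Sec8, Sec10 and Sec15 meet the rule by prefix, although their products tether vesicles at the plasma membrane, after the Golgi. None of the 6 was in the table, and neither were Exo70, Exo84 and the exocyst regulator gene Rala. TRAP1, a mitochondrial chaperone by its current annotation as Trap1, was also not in the table.

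Neighbouring parts of the pathway, read from lists of other symbols, fell together with the members. Lower genes of these and the following lists were counted under equal-sum scaling, not with the smaller shift of 1.35. With that shift a gene stays lower where its log2 fall exceeded 1.35, so more genes can stay lower. All 7 coatomer genes, the COPI coat that the prefix missed, were lower per the authors' deposited table (median -2.05), 5 of them under equal-sum scaling. In order of adjusted p they were led by epsilonCOP (13.8-fold), deltaCOP (5.92-fold) and gammaCOP (4.13-fold), all lower per the authors' deposited table. In the list of Golgi tethers, SNAREs and vesicle GTPases, 20 of 25 genes were listed and all 20 were lower per the authors' deposited table (median -1.85), but only 10 under equal-sum scaling. Syx18 (4.80-fold), cbs, the Golgin97 of the current annotation (8.51-fold), and Grasp65 (10.05-fold) had the smallest adjusted p there, all lower per the authors' deposited table.

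N-glycosylation and ER quality control followed. Of 21 genes for building, attaching and trimming N-linked sugars, 19 were lower and 1 higher per the authors' deposited table (median -1.76), with 10 in each direction under equal-sum scaling. The dolichol glucosyltransferase gene wol (16.2-fold) and the oligosaccharyltransferase subunit genes Ostgamma (10.7-fold) and Ost48 (9.27-fold) were lower per the authors' deposited table. All 11 other ER folding genes were lower per the authors' deposited table (median -2.52), 7 of them under equal-sum scaling. Smallest in adjusted p were shv, an ER DnaJ gene (11.3-fold), CG11377, the Creld of the current annotation (5.73-fold), and the ER stress factor gene Manf (12.2-fold), all lower per the authors' deposited table. Of 13 genes of ER-associated degradation, which exports misfolded proteins to the proteasome, 10 were listed and lower (median -1.62 per the authors' deposited table), 5 of them under equal-sum scaling. Der-1 (5.11-fold), Der-2 (4.40-fold) and Herp (4.79-fold) led that list per the authors' deposited table.

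Stress regulators did not share 1 direction. CrebA, a transcription factor known in the fly salivary gland to activate secretory pathway genes, was estimated at 106 CPM in tumor and 676 CPM in control, 6.39-fold lower per the authors' deposited table (adjusted p = 1.88e-05). The adaptor gene Traf4 was 11.3-fold higher, and eIF2alpha, the target of PEK, 2.26-fold lower, per the authors' deposited table. Of the 11 genes in this list 4 were lower and 4 higher per the authors' deposited table (median -0.16), and CrebA alone was lower under equal-sum scaling. Beside CrebA and eIF2alpha, BI-1 (-1.03) and Atf6 (-0.75) were lower per the authors' deposited table. Beside Traf4, Ask1 (0.96), S2P (0.53) and SREBP (0.43) were higher per the authors' deposited table. These further genes were chosen after their values were seen.

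Post-Golgi and regulated secretion genes were mixed. Of 25 genes, 10 were lower and 4 higher per the authors' deposited table (median -1.18), and 2 were lower under equal-sum scaling. Of those that turned, Clc (-1.73), AP-1sigma (-1.62), Snap29 (-1.38) and Rab11 (-1.38) fell by more than the smaller shift of 1.35. AP-1mu (-1.23), Vamp7 (-1.13), Syb (-0.99) and Rab8 (-0.89) fell by less. Apart from Clc, these genes were named after their values were seen. The Golgi GTPase gene Rab6 was 10.1-fold lower and the clathrin light chain gene Clc 3.32-fold lower, while unc-13, which primes vesicles for release, was 6.11-fold higher, per the authors' deposited table.

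**Figure D3:**
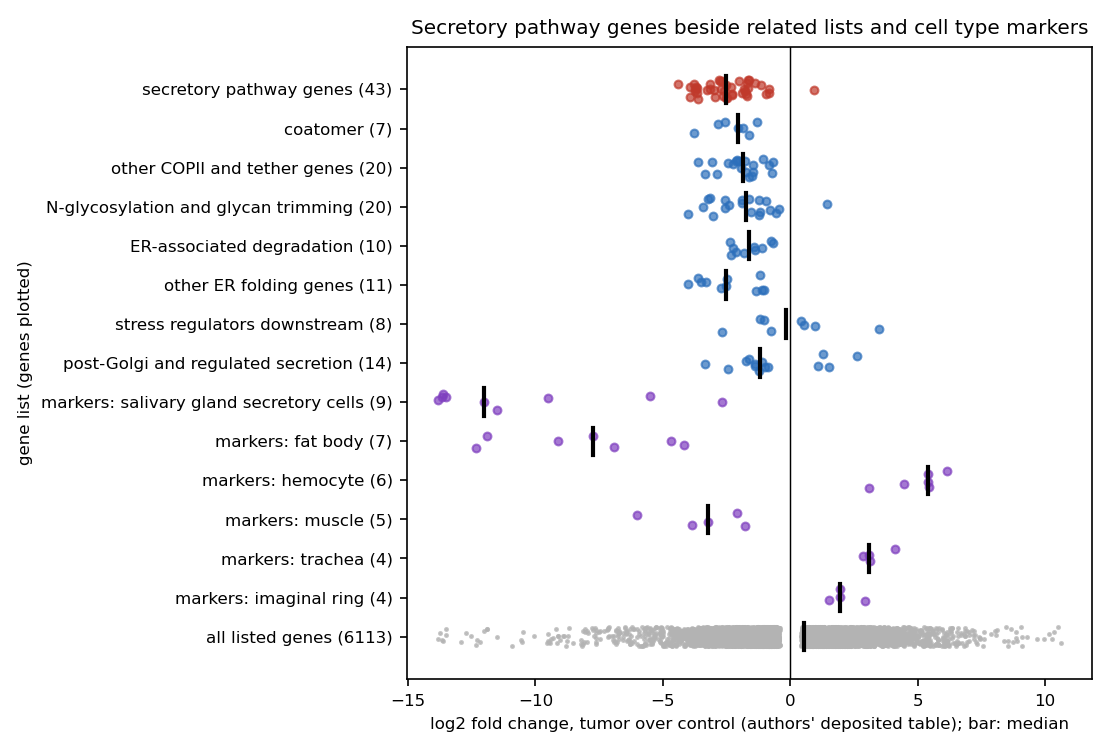
Log2 fold change of tumor over control from the authors' deposited table, 1 point per listed gene, with a bar at the median of each list. Red shows 43 secretory pathway genes, blue the related lists, purple the cell type markers and grey all listed genes with a fold. The medians of the secretory pathway genes (-2.54) and the other ER folding genes (-2.52) stand left of the other related lists, and only the salivary gland, fat body and muscle markers lie further left. Equal-sum scaling would move all points right by 1.80, past 0 for some genes of every related list.

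Short transcripts had lower fold changes than long ones, among the members and in the table as a whole. Transcript length, the median over annotated transcripts, ran from 464 to 4661 nucleotides among the members, with a median of 1727 against 1880 for all listed genes. Across the 43 members other than PH4alphaPV, log2 fold change rose with log2 length (Pearson's r 0.68, Spearman's rho 0.68). Across 6111 other listed genes r was 0.37 and rho 0.45. These are correlations across genes of the same libraries, which are not independent replicates. In the shortest quartile of listed genes, up to 1145 nucleotides, 12 of 12 members were lower with a median of -3.65, beside 77.8% of the other genes with a median of -1.43. Within the longest quartile, from 3150 nucleotides, 4 of 5 members were lower with a median of -1.61, beside 9.52% of the other genes with a median of 1.53. Within role groups the order ran the same way in places: Sec61beta (792 nucleotides) had a lower log2 fold change per the authors' deposited table than Sec63 (2944 nucleotides), and Srp14 (464 nucleotides) a lower one than Srp68 (2132 nucleotides). Elsewhere it ran the other way. Among ER chaperones, Pdi (2204 nucleotides) and Hsc70-3 (3019) had lower log2 fold changes per the authors' deposited table than the shorter wbl (1136) and Calr (1553.5). These pairs were chosen after their values were seen. The part of length in the falls was not tested.

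Level moved with the fold changes as well. The members' median was 175 CPM per kb over all libraries, against 11.96 CPM per kb for all listed genes. In the top quartile by this level, which holds 38 members, all 38 were lower, beside 82.8% of the other genes there, and the medians were -2.65 for the members and -1.60 for the others. Where a gene was both in that top quartile and in the shortest quartile, the medians were -3.67 for 11 members and -1.95 for 638 other genes. In the top level quartile and the longest quartile they were -1.70 for 3 members and 0.51 for 82 other genes. Mean level and fold change come from the same counts, and the part of level in the falls was not tested.

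**Figure D4:**
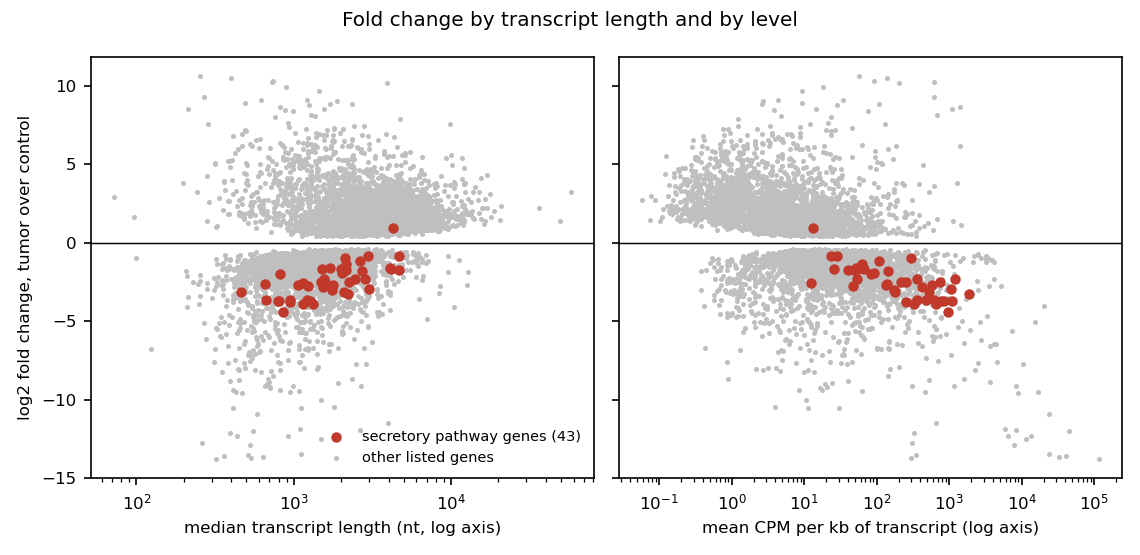
Log2 fold change of tumor over control from the authors' deposited table against median transcript length in nucleotides (left) and mean CPM per kb of transcript (right), both on log axes, for 43 secretory pathway genes (red) and the other listed genes (grey). Genes fitted at 0 in a group are left out, and the empty band around 0 holds genes that were not called. The red points run from 464 to 4661 nucleotides in length, and most lie among the abundant genes, which were mostly lower. PEK (0.94) is the red point above 0, where 12 more would stand under equal-sum scaling.

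Markers of secretory tissues moved in the same direction, and in bulk samples fewer cells of a type and less RNA per cell cannot be told apart. All 9 listed markers of salivary gland secretory cells, of 10, were lower (median -12.03 per the authors' deposited table), with an estimated sum of 213 CPM in tumor and 287282 CPM in control. CrebA is in this list as well as among the stress regulators. Sgs7, a glue protein gene, and sage, a transcription factor gene of these cells, were 14339-fold and 45.4-fold lower per the authors' deposited table. Fat body, another tissue that secretes large amounts of protein, had 7 of 9 markers listed, all lower (median -7.73 per the authors' deposited table), with a sum of 1268 CPM in tumor and 187694 CPM in control. Of 6 muscle markers 5 were listed and lower (median -3.23 per the authors' deposited table), 4 of them under equal-sum scaling. Hemocyte markers, 6 of 7 listed, and tracheal markers, 4 of 4, were all higher, with medians of 5.40 and 3.10 per the authors' deposited table. Estimated sums were 1473 CPM in tumor and 28.2 CPM in control for hemocytes, and 177 CPM in tumor and 20.4 CPM in control for trachea. Markers used for the imaginal ring itself (hth, eyg, toe and Scr) were listed and higher, with a sum of 717 CPM in tumor and 145 CPM in control. In control this ring sum was far below the salivary gland and fat body sums, although the samples are given as imaginal ring. In tumor it lay above the salivary gland sum and below the fat body sum. Sums of markers do not give shares of cells. No marker of these lists was fitted at 0 in either group. The secretory pathway members together were estimated at 6396 CPM in tumor and 43471 CPM in control, a 6.80-fold ratio of control to tumor, against 3.49-fold for all listed genes. How far the makeup of the samples entered the members' fold changes was not tested.

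Reads of overlapping genes may be shared, since the strand setting of the counting is not given in the sources used here. Annotated exons of 15 members overlap those of another gene, on the opposite strand in all 15 and also on the same strand for Spase22-23. The longest overlaps were 1077 nucleotides for Sec63 and 501 nucleotides for Pdi, both with antisense RNA genes. Without these 15, the remaining members counted 27 lower and 2 higher, with a median of -2.60.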

How the data were processed

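RNA of 6 samples (3 tumor, 3 control) was sequenced. Per the submitters' processing notes, the authors used featureCounts and DESeq2, without versions. The sources used here do not give the aligner, build, annotation, strand setting or filters. Per the file headers, the authors deposited 5 values a gene: log2 fold change with and without shrinkage, average log2 CPM, p-value and false discovery rate. These column names are not DESeq2's usual ones but match glmTreat of edgeR, which tests against a minimum fold change, so the tool behind the values is unsettled. The authors' deposited sheet of call numbers, under a heading of 1.2, totals 9384 tested genes, of which the 6156 called ones have rows. The smallest listed log2 fold change was 0.41 in size. If 1.2 is the minimum fold tested against, a gene that was not called may still differ by a small fold.

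No test was run here, since no value per sample was used. Genes were selected by symbol, counted and described with python 3.11.15, pandas 2.3.3, numpy 2.4.6 and scipy 1.17.1, and the counting steps were tested on simulated data. The printed fold changes are the shrunken ones, which differ from the unshrunk ones by at most 0.0010 on the log2 scale in the members, PH4alphaPV excepted. An unshrunk value over 100 in size, found in 43 genes, is read as a group fitted at 0. Depth per library is unknown, so no interval or floor is given.

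The members, role groups and lists were chosen with earlier results of these data known. Every member could be named, and in each related list the up to 3 genes with the smallest adjusted p; any other gene is said to be chosen after its value was seen. Sgs7 and sage were chosen after their values were seen. In the related lists 9 symbols matched no gene name. Transcript lengths come from the BDGP6 annotation of Ensembl release 115, found for 6155 listed genes (99.98%). No coordinates are printed, because the authors' build is not known to be the same. Planned descriptions of promoter motifs and protein tails were not made, as they need sequences not used here.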

Additional observations from a re-analysis of the deposited data

How the results depend on the processing

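Of 208 values recomputed under other settings, 107 stayed close to the deposited ones (within 0.1 on the log2 scale or 1.5 times for counts), 85 moved and 16 turned sign. The unshrunk log2 values of 43 members are among those that stayed close. All that turned sign did so under the common shifts described below, with 4 members counted under both, so 16 is not a number of genes. An adjusted p below 0.01, a 2-fold minimum and a filter on low levels only drop called rows, so they cannot turn a sign. Leaving out exocyst genes, Srp54 and TRAP1 dropped no member, as none of these has a row. Under these settings 39 to 42 members were lower, and the median lay between -2.62 and -2.54. The 2-fold minimum and the low-level filter each left 1 higher member, and the 2-fold minimum left 0 lower genes of the unfolded protein response. The mean in place of the median was -2.23, and relative to the median of all listed genes the members' median was -3.11. With the 4 genes listed under other symbols 46 were lower, and without the 15 overlapping members 27. Equal-sum scaling, chosen after seeing the data, gave 14 higher members and a median of -0.74. Under it the lower genes numbered 0 in the unfolded protein response, 0 among prolyl 4-hydroxylases, 3 in COPII and 1 in sulfation. The log2 values that turned sign under it were Srp72 (0.028), Tango1 (0.043), Sec24CD (0.10), pip (0.12), sll (0.14), PH4alphaSG1 (0.16), Sec31 (0.19), Srp68 (0.42), Cnx99A (0.66), Xbp1 (0.84), Sec63 (0.97) and Sec24AB (0.97), by the construction of a common shift. Adding the CPM without a row to both sums, also chosen after seeing the data, cut the shift to 1.35 and gave 6 higher members, a median of -1.19 and 0 lower genes of the unfolded protein response. Then 4 members turned sign, Cnx99A (0.21), Xbp1 (0.39), Sec63 (0.52) and Sec24AB (0.52), and the other 8 did not. No paired analysis was possible because the files used here hold no value per sample, and leaving out each replicate was not run for the same reason.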

Other observations

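Other groups of housekeeping genes, chosen by symbol after the data were examined, were lower too, by smaller medians. These counts cover listed genes alone, and family members that were not called or not tested are not counted. Lower genes with the smaller shift of 1.35 were not counted for these groups, and more can be lower with it than under equal-sum scaling. Of all listed genes 48.2% were lower, and of all tested genes 31.6%. All 30 listed proteasome subunit genes were lower per the authors' deposited table (median -1.74), 12 of them under equal-sum scaling. The same table had all 56 listed mitochondrial ribosomal protein genes lower (median -1.21 per the authors' deposited table), 9 under equal-sum scaling, and all 13 listed V-ATPase subunit genes lower (median -1.11), 1 under equal-sum scaling. Of 16 listed cytosolic ribosomal protein genes 13 were lower and 3 higher per the authors' deposited table (median -0.94), and 0 were lower under equal-sum scaling. The median transcript lengths of these groups were 1299, 746, 1350 and 775 nucleotides, all shorter than the 1727 of the secretory pathway members. Differences between the groups were not tested.

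Among regulated secretion genes, Syx1A (2.89-fold), Rab3 (2.44-fold) and Cadps (2.10-fold), which act in neurotransmitter release, were higher beside unc-13 per the authors' deposited table, and Syt1, the synaptic calcium sensor gene, was 5.40-fold lower. Mgat2, a Golgi enzyme gene of N-glycan branching, was the 1 higher gene of the N-glycosylation list, at 2.70-fold per the authors' deposited table. These genes were chosen after their values were seen.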
